A study of Mus musculus with 4 samples.

Results

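Mitosis and cytokinesis genes were followed as 40 named genes that act between entry into mitosis and the parting of the daughter cells. Each was found by its symbol in the deposited table of 13903 genes. All 40 were listed, had at least 1 read in every library and were kept whatever their level. They were described in 7 roles: the mitotic cyclins with CDK1 and FOXM1, the mitotic kinases, the spindle checkpoint and its ubiquitin ligase, the centromere and kinetochore, the spindle motors, cytokinesis and chromosome structure.

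The levels came from 4 bulk mRNA-seq libraries of mouse liver. All mice were OGT-Floxed on a C57BL/6J background and were kept on the CDE diet, a choline-deficient, ethionine-supplemented feed that injures hepatocytes. Livers labelled OGT-KO were from mice that carried AAV8-TBG-CRE, and control livers from mice that carried AAV8-TBG-eGFP. The TBG promoter is active in hepatocytes, so other liver cells were not its target and control hepatocytes held the floxed gene without Cre. For each label there was 1 library with no recovery after the diet and 1 with a 7 day recovery. Every library held equal parts of the RNA of 3 mice, so single mice could not be seen, no value had a replicate error and no single group could be tested against another. Ages of the mice are not given in the sources used here.

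Values are CPM, the reads of a gene for every 1000000 reads on listed genes. The libraries held between 19972699 and 22866431 reads. A 95% interval beside a level or a ratio of levels covers the counting of reads only, not the spread between mice. Differences over many genes are of log2(CPM + 1), which shrinks the changes of genes near 0, and a gene was called at a 2-fold difference on this scale. Ogt, the floxed gene, was at 64.7 CPM in control and 55.3 CPM in the OGT-KO-labelled library with no recovery, and at 55.7 and 77.7 CPM after 7 days. At 7 days it was thus higher in the OGT-KO-labelled library, a log2 difference of 0.47 at the deposited scaling and -0.20 with median-ratio scaling, so every direction below is one between labels. The median of all listed genes was itself higher in the OGT-KO-labelled libraries, by 0.65 with no recovery and 0.61 after 7 days on the log2 scale, and by 0.03 and 0.02 with median-ratio scaling. Of the genes called, 88.4% and 90.7% were higher in the OGT-KO-labelled libraries at the deposited scaling, and 59.4% and 68.9% with median-ratio scaling.

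Most of these genes are held low in resting cells and are transcribed late in the cell cycle. Cyclin B with CDK1 starts mitosis, the kinesins and kinetochore proteins align the chromosomes, the spindle checkpoint holds the anaphase-promoting complex (APC/C) until alignment is complete, and the central spindle then directs cleavage. Adult hepatocytes divide rarely and re-enter the cycle after injury, and many are polyploid because a division ended without cytokinesis. Many promoters of late cell cycle genes hold a cell cycle genes homology region (CHR, TTTGAA), bound through MuvB complexes that repress in quiescence and activate with B-MYB and FOXM1, and CCAAT boxes, which bind NF-Y.

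RefSeq promoter windows of the GRCm38.p6 build were searched for TTTGAA and CCAAT on both strands in the 250 bases before the start. There were 36 windows for 34 members, and none for Aurkb, Ccna2, Foxm1, Kif20a, Smc4 and Tpx2. TTTGAA was in 38.9% of the members' windows, against 11.1% of the windows of all listed genes and 16% of all RefSeq windows. CCAAT was in 77.8%, against 34.8% and 33.8%. At least 2 CCAAT were held by 50% of the members' windows, against 12.2% and 10.1%, and both motifs by 36.1%, against 4.03% and 5.55%. Neither motif was in 19.4% of the members' windows, against 58.1% and 55.7%. The 7 members that held neither in these letters were Anln, Birc5, Mad2l1, Ndc80, Nuf2, Nusap1 and Pttg1. All of these but Pttg1 were at least 2-fold higher between the labels at both times.

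The 5 stretches below are shown because they belong to the members with the largest difference between the labels among those that hold a motif and have at least 150 bases free of annotated exons. Prc1 was left out because its window lay in annotated exon bases. Each runs 5′ to 3′ along the strand of the gene, and capitals mark TTTGAA or CCAAT and their reverse complements. The regions are chr11:99024190-99024439 on the minus strand for Top2a, chr7:135716380-135716629 on the minus strand for Mki67, chr2:164769679-164769897 on the plus strand for Ube2c, chr15:99651657-99651906 on the minus strand for Racgap1 and chr10:69352939-69353162 on the minus strand for Cdk1.
Top2a: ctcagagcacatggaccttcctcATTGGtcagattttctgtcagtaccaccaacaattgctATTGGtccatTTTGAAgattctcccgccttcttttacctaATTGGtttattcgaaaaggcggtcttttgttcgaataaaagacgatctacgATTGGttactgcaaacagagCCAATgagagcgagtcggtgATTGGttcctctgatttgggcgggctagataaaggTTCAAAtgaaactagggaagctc
Mki67: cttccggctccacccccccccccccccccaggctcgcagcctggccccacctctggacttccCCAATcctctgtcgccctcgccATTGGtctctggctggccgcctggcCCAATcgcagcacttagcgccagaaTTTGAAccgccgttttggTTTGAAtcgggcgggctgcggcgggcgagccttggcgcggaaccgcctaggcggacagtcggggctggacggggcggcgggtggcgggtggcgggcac
Ube2c: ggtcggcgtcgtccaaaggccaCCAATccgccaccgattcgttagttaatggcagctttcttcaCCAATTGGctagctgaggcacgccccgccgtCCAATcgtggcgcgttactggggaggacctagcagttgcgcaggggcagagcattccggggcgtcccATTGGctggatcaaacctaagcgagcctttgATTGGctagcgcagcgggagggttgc
Racgap1: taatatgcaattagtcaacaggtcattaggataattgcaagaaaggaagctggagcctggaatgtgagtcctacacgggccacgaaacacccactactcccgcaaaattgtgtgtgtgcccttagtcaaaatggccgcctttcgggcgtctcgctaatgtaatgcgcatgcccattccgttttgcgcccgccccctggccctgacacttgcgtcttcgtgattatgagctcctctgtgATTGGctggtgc
Cdk1: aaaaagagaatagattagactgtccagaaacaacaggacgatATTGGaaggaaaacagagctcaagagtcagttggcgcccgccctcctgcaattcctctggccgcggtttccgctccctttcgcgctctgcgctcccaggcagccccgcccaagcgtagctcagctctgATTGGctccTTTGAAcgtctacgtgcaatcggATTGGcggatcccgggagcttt
Top2a held 2 TTTGAA and 6 CCAAT, and Mki67 held 2 TTTGAA and 3 CCAAT. The Ube2c stretch held 6 CCAAT, 2 of which overlap in a palindrome read on both strands. The 1 TTTGAA of its 250-base window lay nearer the start, in bases not printed because an annotated exon begins there. Racgap1 held 1 CCAAT alone. In the Cdk1 stretch 1 TTTGAA lay 71 bases before the start, between CCAAT at 80 and 48 bases, and the other of the 2 in its window likewise lay nearer the start, in bases not printed. These matches describe the letters and do not show that a factor was bound.

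The question of the first comparison was how OGT-KO-labelled liver differed from control at each time. Of the 40 members, 39 were at least 2-fold higher in the OGT-KO-labelled library with no recovery, where 33.1% of all listed genes were. The same 39 were at least 2-fold higher after 7 days, where 32.3% of all listed genes were, and 26.9% of listed genes were so at both times. No member was 2-fold lower, against 4.35% of listed genes with no recovery and 3.32% after 7 days. The median difference of the members was 2.54 with no recovery and 3.32 after 7 days on the log2 scale, or 1.89 and 2.71 above the median of all listed genes. The exception was Pttg1. In bulk liver, more cells in division and more RNA of these genes per cell cannot be told apart. With no recovery 30 members were at 10 CPM or more in the OGT-KO-labelled library and 1 in control, which was Pttg1. In control, 18 members lay under 1 CPM with no recovery and 10 after 7 days.

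The members together took 93.4 CPM in control and 633 CPM in the OGT-KO-labelled library with no recovery, a ratio of 6.78 (95% interval 6.47 to 7.11). After 7 days they took 108 and 1219 CPM, a ratio of 11.3 (10.8 to 11.8). Pttg1 held much of the control sum: without it the sums were 71.6 and 613 CPM with no recovery, and 84.1 and 1202 CPM after 7 days. Both OGT-KO-labelled libraries lay above both control libraries for 39 members, as they did for 74.4% of all listed genes. The order of 7 days above no recovery above both controls was held by 39 members and by 31.6% of listed genes.

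**Figure D1:**
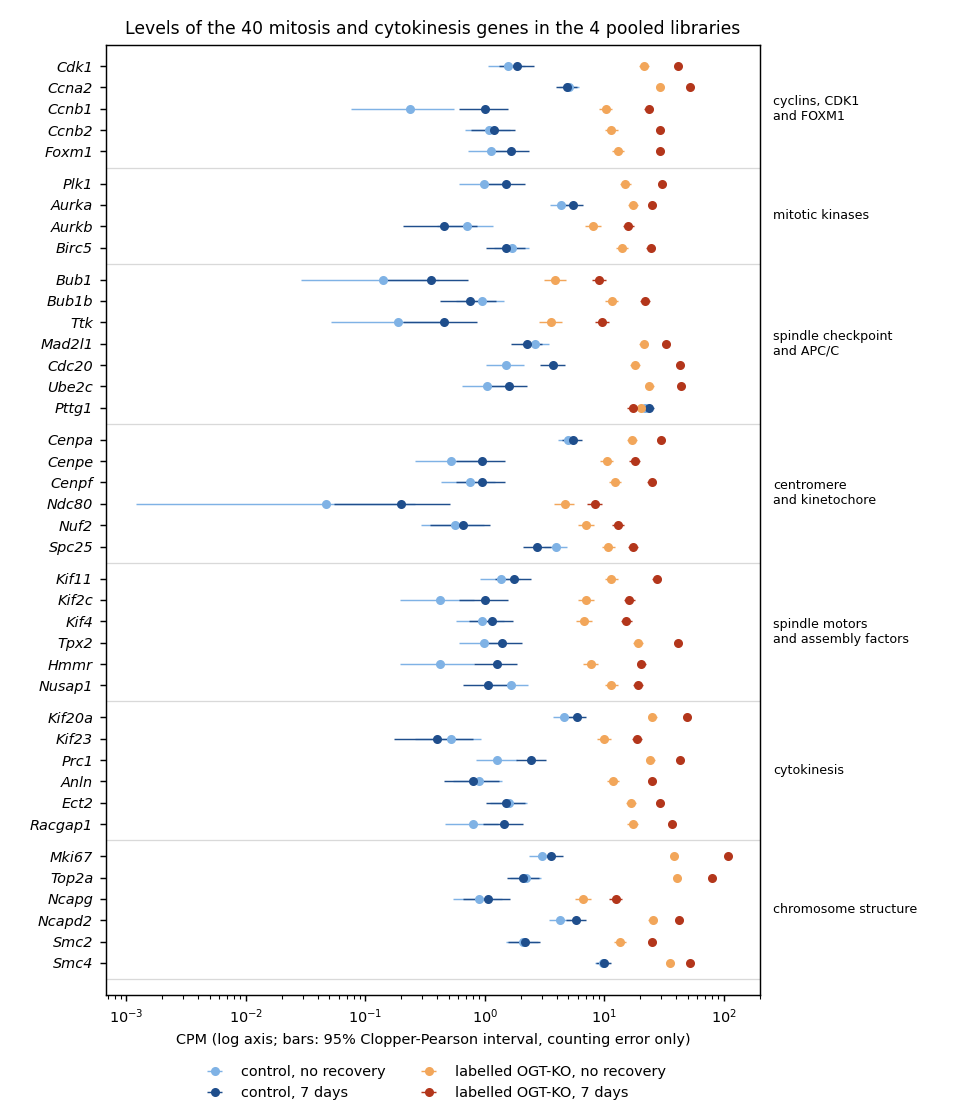
CPM of each of the 40 members on a log axis in the 4 pooled libraries, grouped by role, with 95% Clopper-Pearson intervals that cover counting error only. The OGT-KO-labelled library after 7 days lies farthest right for every member but Pttg1, whose 4 levels lie between 17.2 and 23.5 CPM.

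**Figure D2:**
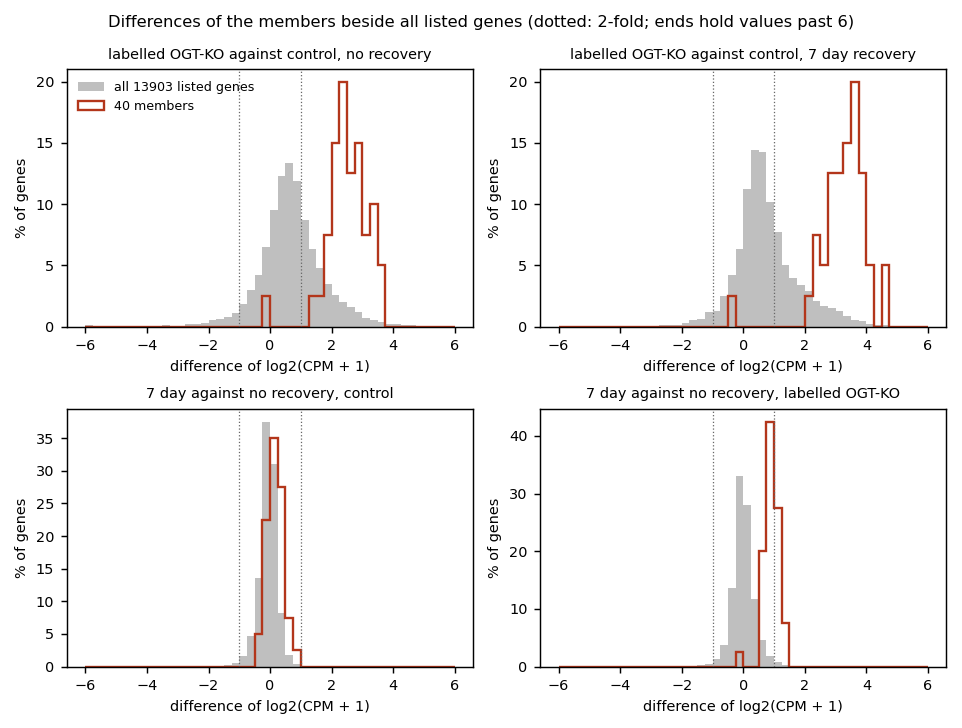
Differences of log2(CPM + 1) in the 4 comparisons as the percent of genes in each bin, with all 13903 listed genes in grey, the 40 members as a red line and dotted lines at a 2-fold difference. The members' medians are 2.54 and 3.32 between the labels, 0.16 over recovery in control and 0.88 over recovery in the OGT-KO-labelled libraries.

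The genes that start mitosis came first in the ordering by role. Their 5 levels summed to 9.08 CPM in control and 85.2 CPM in the OGT-KO-labelled library with no recovery, a ratio of 9.39 (8.09 to 10.9), and to 10.6 and 175 CPM after 7 days, a ratio of 16.5 (14.4 to 19.1). Cdk1, the kinase of mitotic entry, was at 1.55 CPM in control and 21.5 CPM in the OGT-KO-labelled library with no recovery, and at 1.85 and 41.4 CPM after 7 days. Ccna2, cyclin A2, which acts in S phase and at mitotic entry, was at 5.08 and 29.0 CPM with no recovery and at 4.86 and 51.8 CPM after 7 days. For both genes the control libraries lay close together and the OGT-KO-labelled libraries far above them. Ccnb1, cyclin B1, was at 0.24 and 10.2 CPM with no recovery, from 5 and 234 reads, and at 1.001 and 23.4 CPM after 7 days, from 20 and 528 reads. Foxm1, the transcription factor of the late cell cycle genes, was at 1.13 and 13.1 CPM with no recovery and at 1.65 and 29.1 CPM after 7 days. Ccnb2, cyclin B2, was at 1.08 and 11.4 CPM, then at 1.20 and 29.0 CPM. For these genes too, no control interval reached the levels in the OGT-KO-labelled libraries. The ratio for Ccnb1 with no recovery, 43.5, rested on the 5 control reads and had an interval of 18.4 to 135.

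The mitotic kinases summed to 7.71 and 54.4 CPM with no recovery, and to 8.91 and 95.6 CPM after 7 days. Plk1, which acts on centrosomes, kinetochores and cleavage, was at 0.99 CPM in control and 14.96 CPM in the OGT-KO-labelled library with no recovery, and at 1.502 and 30.4 CPM after 7 days. Aurka, the spindle pole kinase, was at 4.33 and 17.4 CPM, then at 5.46 and 25.0 CPM. Aurka had the smallest ratio of the kinases, which was 4.01 (3.19 to 5.09) before and 4.58 (3.72 to 5.67) after recovery. Of the 2 other genes, Aurkb is the kinase of the chromosomal passenger complex and Birc5, survivin, is a subunit that places it. Aurkb ran from 0.45 CPM in control after 7 days to 15.9 CPM in the OGT-KO-labelled library after 7 days, and Birc5 from 1.502 to 24.3 CPM in those same libraries.

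In the spindle checkpoint and APC/C role, 6 of 7 genes were at least 2-fold higher at both times, where 26.9% of all listed genes were. Ube2c, the E2 enzyme that starts ubiquitin chains for the APC/C, was at 1.03 CPM in control and 23.7 CPM in the OGT-KO-labelled library with no recovery, and at 1.60 and 44.0 CPM after 7 days. Cdc20, the activator of the APC/C that the checkpoint blocks, was at 1.51 and 18.2 CPM, then at 3.71 and 42.6 CPM. The checkpoint genes Bub1, Bub1b, Ttk and Mad2l1 had ratios between 8.08 (Mad2l1) and 27.6 (Bub1) with no recovery and between 14.5 (Mad2l1) and 29.1 (Bub1b) after 7 days. Bub1 had 3 reads in control with no recovery, and its ratio of 27.6 had an interval of 9.14 to 136.

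Pttg1 encodes securin, the inhibitor of separase that the APC/C destroys at anaphase. It was at 21.8 CPM in control and 20.3 CPM in the OGT-KO-labelled library with no recovery, and at 23.5 and 17.2 CPM after 7 days. With no recovery the levels could not be told apart by counting error, at a ratio of 0.93 (0.82 to 1.06). After 7 days the OGT-KO-labelled library was lower, at a ratio of 0.73 (0.64 to 0.84). The log2 differences were -0.10 and -0.43 at the deposited scaling, -0.78 and -1.08 with median-ratio scaling and -0.56 and -0.89 with upper-quartile scaling, so the direction was the same under each and the size was not. Pttg1 also stood apart in its control level: per kilobase of its longest coding transcript it had 13.0 CPM in control with no recovery and 14.1 after 7 days, and ranked first of the 40 in those libraries. It also ranked first in the OGT-KO-labelled library with no recovery, with 12.1 CPM per kilobase. In the OGT-KO-labelled library after 7 days it had 10.3 CPM per kilobase and ranked 15. On that same scale Cdc20 ranked first in the OGT-KO-labelled library after 7 days with 23.8 CPM per kilobase, followed by Cenpa with 20.4, Ube2c with 20.1 and Ccnb2 with 18.96.

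The 6 centromere and kinetochore genes summed to 10.8 and 62.2 CPM with no recovery, and to 10.9 and 111 CPM after 7 days. Cenpa, the histone H3 variant that marks the centromere, was at 4.99 CPM in control and 17.0 CPM in the OGT-KO-labelled library with no recovery, and at 5.41 and 30.0 CPM after 7 days. Cenpf, a kinetochore protein of late cycle cells, was at 0.75 and 12.3 CPM, then at 0.95 and 24.8 CPM. Spc25 is a subunit of the NDC80 complex, which holds the microtubules. It was at 3.90 and 10.8 CPM, then at 2.75 and 17.3 CPM, and had the smallest ratio of the 39 higher members with no recovery, 2.77 (2.15 to 3.59). Its partners Ndc80 and Nuf2 were lower in control: Ndc80 had 1 read with no recovery and 4 reads after 7 days, against 106 and 188 reads in the OGT-KO-labelled libraries. The ratio of Ndc80 with no recovery was 98.5 with an interval of 17.3 to 3928, and its size is therefore unknown beyond that range. Nuf2 was at 0.56 and 7.00 CPM, then at 0.65 and 13.1 CPM. The motor Cenpe had ratios of 20.2 (11.1 to 41.0) and 18.8 (11.9 to 31.6).

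Spindle motors and assembly factors summed to 5.79 and 63.5 CPM with no recovery, and to 7.61 and 139 CPM after 7 days, the largest ratio of the 7 roles at both times, 10.97 (9.12 to 13.3) and 18.3 (15.6 to 21.7). The intervals overlapped with those of the cytokinesis genes and of the cyclins, CDK1 and FOXM1 at both times, so the order of these roles is not settled by counting. Tpx2, the activator of Aurora A on spindle microtubules, was at 0.99 CPM in control and 19.2 CPM in the OGT-KO-labelled library with no recovery, and at 1.40 and 41.1 CPM after 7 days. Kif11, the motor that pushes the spindle poles apart, was at 1.36 and 11.5 CPM, then at 1.75 and 27.3 CPM. Hmmr, a microtubule-binding protein of the spindle, was at 0.42 and 7.65 CPM, then at 1.25 and 20.4 CPM. All 3 were far above control in both OGT-KO-labelled libraries. The microtubule depolymerase Kif2c, the chromokinesin Kif4 and the microtubule bundler Nusap1 had ratios between 6.93 (Nusap1) and 16.6 (Kif2c) with no recovery, and between 13.2 (Kif4) and 18.3 (Nusap1) after 7 days.

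The cytokinesis genes summed to 9.69 and 105 CPM with no recovery, a ratio of 10.8 (9.41 to 12.6), and to 12.5 and 201 CPM after 7 days, a ratio of 16.1 (14.2 to 18.4). Prc1, which crosslinks the antiparallel microtubules of the central spindle, was at 1.27 CPM in control and 24.2 CPM in the OGT-KO-labelled library with no recovery, and at 2.45 and 42.9 CPM after 7 days. Kif20a, a kinesin of the central spindle, was at 4.61 and 25.2 CPM, then at 5.86 and 48.7 CPM. Kif23 and Racgap1 form the centralspindlin complex, Ect2 is the exchange factor that it recruits to activate RhoA, and Anln, anillin, links RhoA to the contractile ring. These 4 genes were between 0.40 CPM (Kif23) and 1.60 CPM (Ect2) over both control libraries. In the OGT-KO-labelled libraries they were between 9.88 CPM (Kif23 with no recovery) and 36.6 CPM (Racgap1 after 7 days). Each of the 6 was at least 2-fold higher at both times, where 26.9% of all listed genes were. Kif20a shares up to 977 annotated exon bases with Cdc23 on the opposite strand, and 12 members share some exon bases with another gene. Whether reads were counted by strand is not given in the sources used here, so a part of such a level may be the other gene's.

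The genes of chromosome structure had the highest sum of the roles in the OGT-KO-labelled libraries. In control they came second, after the spindle checkpoint and APC/C genes. The chromosome structure sums were 22.1 and 160 CPM with no recovery and 24.5 and 320 CPM after 7 days. In control Pttg1 alone held 21.8 of the 28.2 CPM of the spindle checkpoint and APC/C genes with no recovery. After 7 days it held 23.5 of their 32.6 CPM. Mki67, the coat protein of mitotic chromosomes and a common marker of cycling cells, was at 3.01 CPM in control and 38.5 CPM in the OGT-KO-labelled library with no recovery, and at 3.55 and 109 CPM after 7 days. Top2a, the topoisomerase that untangles sister chromatids, was at 2.21 and 40.6 CPM, then at 2.10 and 80.1 CPM. Top2a had the largest log2 difference of the members at both times, 3.69 and 4.71. Condensin folds the chromosomes. Its subunit Smc4 was at 9.64 and 35.4 CPM, then at 9.86 and 51.7 CPM. Smc2 was at 2.07 and 13.6 CPM, then at 2.15 and 25.0 CPM. The 2 other condensin subunits, Ncapd2 and Ncapg, had ratios of 5.92 (4.73 to 7.46) and 7.44 (4.60 to 12.7) with no recovery, and of 7.31 (6.02 to 8.94) and 11.8 (7.57 to 19.4) after 7 days.

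The second comparison followed each label over the 7 days of recovery. In control no member differed by 2-fold on the log2(CPM + 1) scale, against 0.223% of listed genes that were higher and 0.964% that were lower, and the median difference was 0.16 (all genes, -0.05). This scale shrinks the low control levels, and by the plain ratio of CPM 7 members were at least 2-fold higher in control and 16 in the OGT-KO-labelled libraries. How many of all listed genes pass the plain ratio was not counted, so neither of these counts can be called unusual. By any amount 29 members were higher and 11 lower in control, where 40.5% of listed genes were higher. In the OGT-KO-labelled libraries 14 members, 35% of the 40, were at least 2-fold higher after 7 days, against 1.28% of listed genes, and none was 2-fold lower, against 0.791%. At least 1.5-fold higher were 37 members, against 5.62% of listed genes, and by any amount 39, against 47.4%. The median difference was 0.88 (all genes, -0.02). The 178 listed genes called higher here thus included 14 members, 7.87% of them.

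The summed level in control was 1.15 times that with no recovery (1.08 to 1.23) and in the OGT-KO-labelled libraries 1.93 times (1.89 to 1.97). Among single genes 39 members had an interval above 1 in the OGT-KO-labelled libraries, with ratios from 1.44 (Aurka) to 2.82 (Mki67), and Pttg1 had one below 1, at 0.85 (0.74 to 0.97). In control 6 members had an interval above 1, namely Ccnb1, Cdc20, Kif2c, Hmmr, Prc1 and Ncapd2, and none had one below 1. How many of all listed genes have such an interval was not counted, so neither 39 nor 6 can be called unusual. Of these 6 members, Cdc20 was at 1.51 CPM with no recovery and 3.71 CPM after 7 days. Its ratio was 2.46 (1.61 to 3.85), beside 2.34 (2.09 to 2.64) in the OGT-KO-labelled libraries. Ccnb1 had ratios of 4.26 (1.55 to 14.5) in control and 2.29 (1.956 to 2.68) in the OGT-KO-labelled libraries, and Hmmr of 2.96 (1.33 to 7.20) and 2.67 (2.24 to 3.20). For these 3 genes the intervals of the labels overlapped, so a difference in their recovery could not be seen at this depth.

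On the log2(CPM + 1) scale Mki67 parted most, by 1.29. It was at 3.01 and 3.55 CPM in control, a ratio of 1.18 (0.83 to 1.68), and at 38.5 and 109 CPM in the OGT-KO-labelled libraries, a ratio of 2.82 (2.61 to 3.05). Top2a had ratios of 0.95 (0.61 to 1.47) and 1.97 (1.82 to 2.14), and Smc4 of 1.02 (0.84 to 1.25) and 1.46 (1.34 to 1.60). In these 3 genes the interval of the OGT-KO-labelled libraries lay above that of control. Ccnb2 had ratios of 1.11 (0.60 to 2.06) and 2.54 (2.20 to 2.95). By plain ratios of CPM other genes parted more than Mki67, from fewer control reads: Aurkb had ratios of 0.64 (0.25 to 1.56) and 1.97 (1.65 to 2.37), and Nusap1 of 0.64 (0.35 to 1.13) and 1.69 (1.45 to 1.98). By role, the sums over recovery in the OGT-KO-labelled libraries had ratios between 1.73 (1.64 to 1.82) for the spindle checkpoint and APC/C genes, Pttg1 included, and 2.20 (2.06 to 2.34) for the spindle motors, and every role had an interval above 1. In control the ratios of the roles lay between 1.013 (0.84 to 1.23) for the centromere and kinetochore and 1.32 (1.03 to 1.68) for the spindle motors. The difference over recovery in the OGT-KO-labelled libraries less that in control had a median of 0.77 on the log2 scale over the 40 members and 0.05 over all listed genes. It was above 0 for 39 members and for 7702 of the 13903 listed genes. With 1 library in each group it has no error and was not tested.

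**Figure D3:**
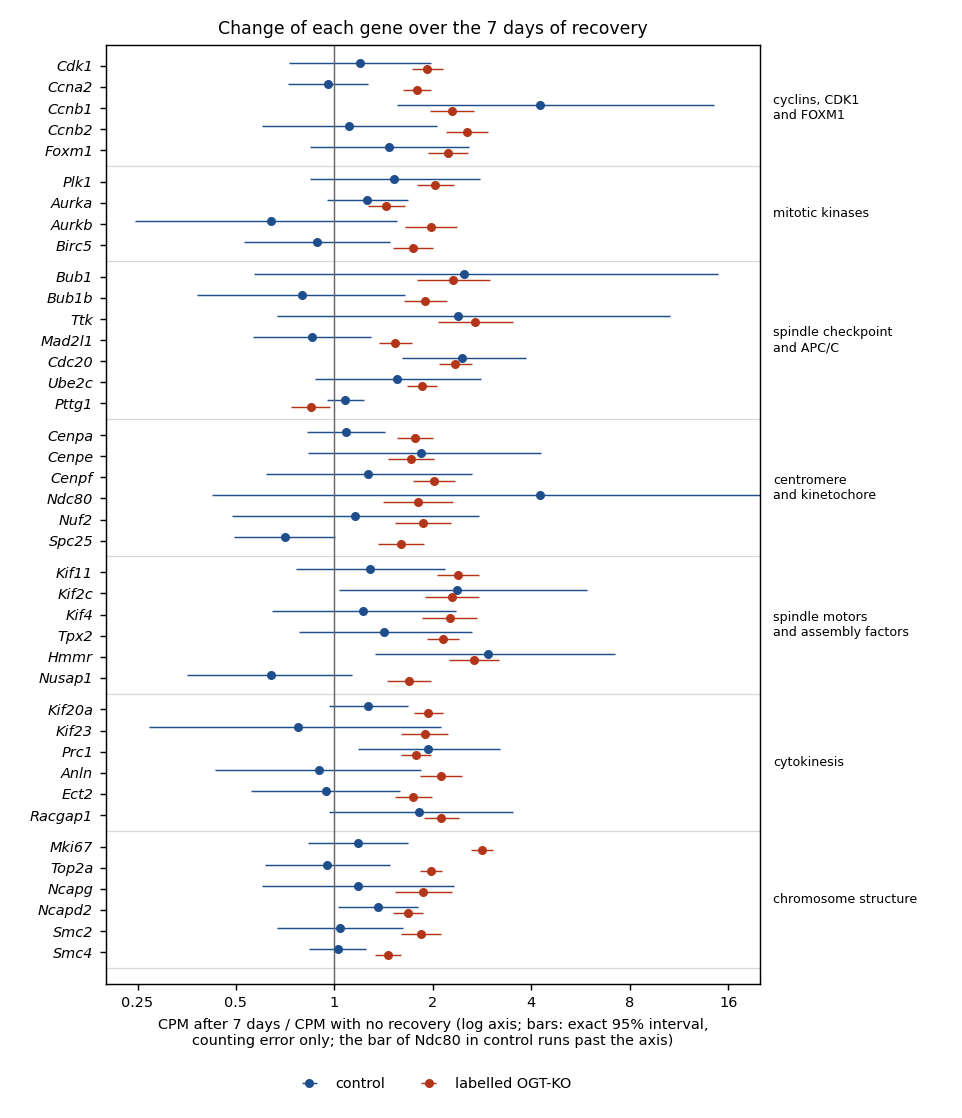
Ratio of CPM after 7 days to CPM with no recovery for each member on a log axis, in control and in the OGT-KO-labelled libraries, with exact 95% intervals that cover counting error only. The ratios in the OGT-KO-labelled libraries lie between 1.44 and 2.82 apart from Pttg1 at 0.85, and most control intervals hold 1.

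Other genes of the cell cycle were taken from lists of their own. Of 75 other mitosis genes, 64 with no recovery and 70 after 7 days were at least 2-fold higher in the OGT-KO-labelled library. Of all listed genes, 33.1% and 32.3% were. None of the 75 was 2-fold lower, against 4.35% and 3.32% of listed genes. The medians of the 75 were 1.84 and 2.47. Over recovery 9 of the 75 were 2-fold higher in the OGT-KO-labelled libraries and 0 in control, against 1.28% and 0.223% of listed genes. Ckap2, a spindle protein, was at 0.71 CPM in control and 25.7 CPM in the OGT-KO-labelled library with no recovery, and at 1.55 and 29.5 CPM after 7 days. Zwint, a kinetochore protein, was like Pttg1 already well expressed in control, at 49.3 and 59.0 CPM with no recovery and 46.5 and 48.1 CPM after 7 days. Of 24 subunits of the APC/C and cohesin, which are present through the whole cycle, 6 and 8 were at least 2-fold higher. Of all listed genes, 33.1% and 32.3% were. The medians of the 24 were 0.81 and 0.77. The APC/C subunit Anapc5 was at 69.3 and 115 CPM, then at 61.0 and 125 CPM. These medians lay near that of all listed genes.

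Of 40 DNA replication and S-phase genes, 27 and 31 were at least 2-fold higher, where 33.1% and 32.3% of all listed genes were. At each time 1 of the 40 was 2-fold lower, against 4.35% and 3.32% of listed genes. The medians of the 40 were 1.38 and 1.80. Over recovery their median was 0.51 in the OGT-KO-labelled libraries and -0.03 in control. Mcm6, a subunit of the replicative helicase, was at 4.66 CPM in control and 45.7 CPM in the OGT-KO-labelled library with no recovery, and at 4.36 and 65.4 CPM after 7 days. The lower gene was Mcm10, a replication initiation factor, at 121 and 19.9 CPM, then at 94.6 and 24.0 CPM. Among 8 genes of the G1 cyclins and their kinases, 4 and 3 were at least 2-fold higher, where 33.1% and 32.3% of all listed genes were. Ccnd1, cyclin D1, was at 42.5 and 251 CPM, then at 47.3 and 437 CPM. The CDK inhibitors were higher beside them, with 5 and 7 of 7 genes at least 2-fold higher. Cdkn1a, p21, was at 10.9 and 191 CPM with no recovery and at 5.86 and 93.1 CPM after 7 days. Between the times p21 was thus lower after 7 days in each label, but most of its list was not. By any amount 5 of the 7 CDK inhibitors were higher and 2 lower over recovery in the OGT-KO-labelled libraries, with a median of 0.08. In control 4 were higher and 3 lower. Of all listed genes, 47.4% and 40.5% were higher in these comparisons. Of 20 E2F, pocket protein and MuvB genes, 5 and 8 were at least 2-fold higher, and 1 and 0 were 2-fold lower. Their medians of 0.65 and 0.76 lay near the 0.65 and 0.61 of all listed genes. Rbl1, the pocket protein p107, had one of the largest differences of this list. It was at 1.69 and 11.2 CPM, then at 1.20 and 14.8 CPM.

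The markers of most liver cell types differed between the labels as well. The 10 hepatocyte markers summed to 83204 CPM in control and 57195 CPM in the OGT-KO-labelled library with no recovery, and to 91621 and 68920 CPM after 7 days, and none was at 0. At least 2-fold lower were 4 and 3 of the 10, where 4.35% and 3.32% of all listed genes were. The 10 stellate cell and fibroblast markers were each at least 2-fold higher at both times, and summed to 247 and 3537 CPM, then to 177 and 4353 CPM. Of 10 bile duct cell markers, 8 and 9 were at least 2-fold higher, with sums of 121 and 1426 CPM, then 144 and 1805 CPM. Of 10 macrophage markers, 9 were at least 2-fold higher at each time, with sums of 305 and 1253 CPM, then 112 and 924 CPM. The endothelial markers summed to 339 and 606 CPM, then to 240 and 507 CPM. At least 2-fold higher were 4 and 3 of the 10, near the 33.1% and 32.3% of all listed genes. The 6 neutrophil markers listed summed to at most 51.1 CPM and the 5 T, B and NK cell markers listed to at most 9.23 CPM, with Cd8a at 0 in control after 7 days. The 7 erythroid markers listed summed to 382 and 142 CPM, then to 290 and 205 CPM. By single genes 1 was higher and 6 lower with no recovery, but 5 were higher and 2 lower after 7 days. The part of these marker lists in the members' differences was not tested.

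For each marker list and for the members, the change of the sum over recovery is given here as a ratio. In the OGT-KO-labelled libraries the marker sums after 7 days were 1.21 times those with no recovery for hepatocytes, 1.23 for stellate cells and fibroblasts, 1.27 for bile duct cells, 0.74 for macrophages, 0.84 for endothelium, 1.502 (1.37 to 1.65) for neutrophils, 1.44 (1.38 to 1.51) for erythroid cells and 0.59 (0.46 to 0.74) for T, B and NK cells, and the members' sum was 1.93 times (1.89 to 1.97). In control the sums were 1.10 times for hepatocytes, 0.72 for stellate cells and fibroblasts, 1.18 for bile duct cells and 0.37 for macrophages. For endothelium the ratio was 0.71, for neutrophils 0.37 (0.26 to 0.52) and for erythroid cells 0.76 (0.73 to 0.79). For T, B and NK cells it was 1.02 (0.74 to 1.42), beside 1.15 for the members. The part of the marker lists in the members' change over recovery was not tested.

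**Figure D4:**
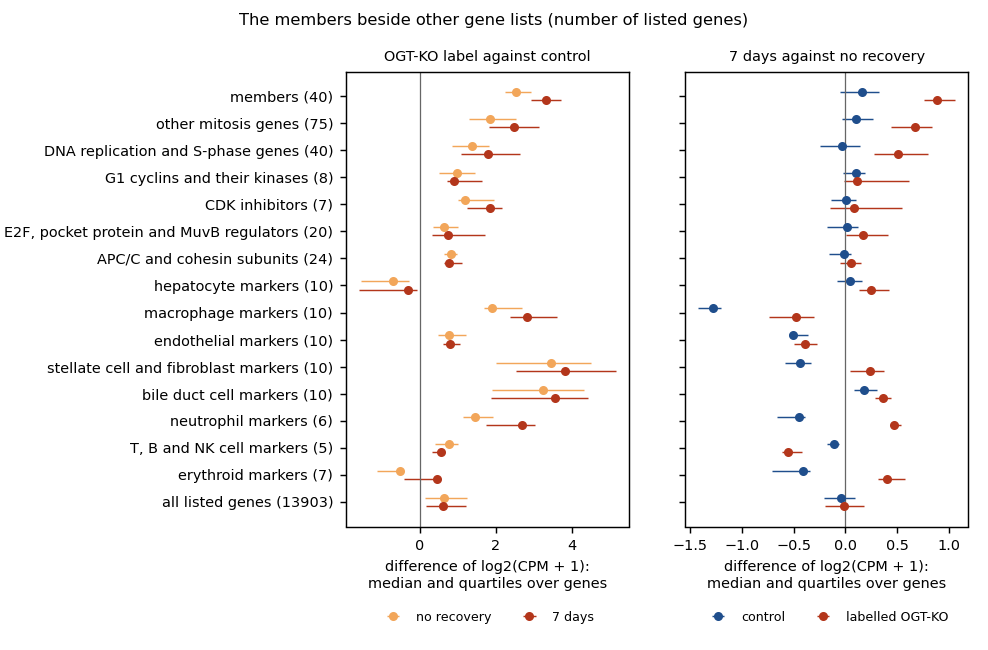
Median and quartiles over genes of the difference of log2(CPM + 1) for the members, the other cell cycle lists, the marker lists and all listed genes, with the number of listed genes in brackets. Between the labels (left) the members' medians of 2.54 and 3.32 lie below those of the stellate cell and bile duct markers at each time, and over recovery (right) their median of 0.88 in the OGT-KO-labelled libraries lies above those of the other lists shown.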

How the data were processed

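The authors deposited 1 table of normalized values for 4 liver libraries. Its columns each sum to 1000000, so the unit is CPM. The submitters' processing notes name GRCm39, STAR and DESeq2 without role or version, and the filter, annotation and strand use are not given in the sources used here. All values were whole multiples of 1 read, within 0.02 of a whole number, so the reads behind each deposited CPM value were recovered.

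Levels were compared as log2(CPM + 1) over all 13903 genes with no filter, and calls were made at 2-fold. Intervals are exact at 95% (Clopper-Pearson for a level, conditional binomial for a ratio). A count of 0 allows up to 3 reads, 0.131 to 0.150 CPM. Reads on listed genes were between 19972699 and 22866431. An additive model of label and time was fitted with edgeR 4.0.16 to the recovered reads as an alternative, and the fold calls and this fit were tested on simulated data. Scripts used Python 3.11.15, scipy 1.17.1, pandas 2.3.3 and R 4.3.3. Other pseudocounts, thresholds, filters and scalings were tried.

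The members and lists were chosen with earlier results of these data known. Members named with values were 5 general markers, the 2 most abundant of each role, those with the 3 largest or smallest differences in each comparison and any that ran against the median. In other lists, genes were named from the 2 most abundant and the 2 with the largest difference. Other members named by ratio or range, and the genes chosen to illustrate the recovery and the roles, were named after their values were seen. Gene lengths and shared exons came from GENCODE M21 (GRCm38), a different build from that of the labels, so no gene coordinates are given. Promoter sequences are from RefSeq, GRCm38.p6.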

Additional observations from a re-analysis of the deposited data

Results flagged for a closer look

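Over recovery 12 members had opposite directions in control and in the OGT-KO-labelled libraries, and these differences were not tested. The share of all listed genes with opposite directions was not counted, so the count of 12 cannot be called unusual. By any amount 40.5% of listed genes were higher in control and 47.4% in the OGT-KO-labelled libraries. The value given for each is the log2 difference in the OGT-KO-labelled libraries less that in control. In 11 members control was lower after 7 days and the OGT-KO-labelled library higher: Aurkb differed by 1.13, Anln by 1.09, Nusap1 by 1.08, Spc25 by 1.02, Bub1b by 1.013, Top2a by 1.013, Kif23 by 0.97, Ccna2 by 0.87, Birc5 by 0.86, Ect2 by 0.82 and Mad2l1 by 0.75. Pttg1 ran the other way, with -0.33. The control ratio of every one of the 12 had a counting interval that held 1, so in control neither direction can be told from counting error.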

How the results depend on the processing

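Of 130 values recomputed under the alternatives, 106 moved little and 24 moved. Only medians could be marked as changed in direction, and 0 were. Counts of members could only stay or move. The filter at a mean of 1 CPM kept all 40 members, so no value could move under it. With a pseudocount of 0.1 the median difference between the labels was 3.45 with no recovery and 4.09 after 7 days, 5 members were at least 2-fold higher over recovery in control, and 4 were so under both labels. With a pseudocount of 10 those medians were 0.98 and 1.62, 19 members were at least 2-fold higher between the labels with no recovery and 19 at both times, and over recovery in the OGT-KO-labelled libraries the median was 0.58 and 1 member was at least 2-fold higher. A filter at a mean of 10 CPM left 23 members. Of these, 22 were at least 2-fold higher with no recovery (24.4% of all genes past this filter), 22 after 7 days (22.9%) and 22 at both times. Over recovery in the OGT-KO-labelled libraries 7 were (1.04%). Shares of all genes were not counted at both times under this filter, nor under either pseudocount. The shifts under the pseudocounts and the filter follow from the construction of the scale or from fewer genes. Median-ratio scaling gave medians of 2.03 and 2.79 between the labels. At least 2-fold higher were 37 members with no recovery and 39 after 7 days, against 17.1% and 19.8% of listed genes. After 7 days 1 member, Pttg1, was at least 2-fold lower, against 8.97% of listed genes. Upper-quartile scaling gave medians of 2.20 and 2.95, with 38 and 39 members at least 2-fold higher, against 21.1% and 22.5%. At 4-fold, 0 members were higher over recovery in the OGT-KO-labelled libraries. At 1.5-fold, 37 were higher there, against 5.62% of listed genes. In control 4 were, against 209 of the 13903 listed genes, and 4 were under both labels.

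The additive edgeR fit used its own normalization factors, not the deposited scaling. Its error came from the difference of differences (1 residual degree of freedom) and from other genes (5.495 prior degrees of freedom). This error also holds any difference between the labels in recovery, and it does not measure the spread between mice. At an adjusted p threshold of 0.05 the fit called 39 members higher and 1 lower (Pttg1) between the labels. Of listed genes, the fit called 30.8% higher and 24.8% lower. Between the times it called 0 genes, with 1005 genes and 26 members at an unadjusted p under 0.05. No paired analysis was possible because the groups share fewer than 2 replicate numbers. The additive fit compares the labels within each time instead. Leaving out 1 of the 4 libraries would leave it no residual degree of freedom. Depth limits the control values most: members there had from 1 to 470 reads.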
